A study of Mus musculus with 2 samples.

Results

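The 28 genes described here cover the making, control, uptake and export of cholesterol. They were taken by symbol from the 19059 genes of the probe set, and all 28 were found. Of these, 7 encode enzymes of the mevalonate and isoprenoid steps (Acat2, Hmgcs1, Mvk, Pmvk, Mvd, Idi1 and Fdps) and 11 encode enzymes from squalene to cholesterol (Fdft1, Sqle, Lss, Cyp51, Tm7sf2, Msmo1, Nsdhl, Hsd17b7, Ebp, Sc5d and Dhcr7). A further 5 control the pathway (Insig1, Insig2, Srebf1, Srebf2 and Scap), and 5 move, store or export sterol (Stard4, Npc1, Npc2, Soat1 and Abca1).

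The cells came from orthotopic KPC pancreatic tumors of mice, grown from tumor cells placed in the pancreas. Tumors were treated with DMSO, the vehicle, or with 10 mg/kg EIPA, an amiloride derivative that blocks sodium-proton exchange and macropinocytosis, in which cells engulf droplets of the surrounding fluid. Each of the 2 samples pooled 4 tumors, which were frozen, fixed and read with a probe-based single-cell RNA assay, and both share 1 matrix. A number in the cell barcode separates 2 libraries, but no label ties that number to DMSO or EIPA. Every value is therefore given for library 1 and library 2, and library 2 over library 1 is a ratio by number, with no treatment direction. With 1 sample per treatment there is no replicate, so no test or p-value is given.

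Cells make cholesterol from acetyl-CoA through mevalonate, farnesyl diphosphate, squalene and lanosterol. When sterol in the endoplasmic reticulum runs low, SCAP carries SREBP proteins, the products of Srebf1 and Srebf2, to the Golgi, where they are cut into factors that switch on most genes of the pathway. INSIG proteins hold SCAP back when sterol is plentiful, and excess sterol also turns on export genes such as Abca1 through the nuclear receptors LXR. In tumors the pathway supplies membrane for growth, and sterol can also come from outside through lipoprotein or fluid uptake and the lysosome.

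SREBP proteins act at sterol regulatory elements together with the factor NF-Y, which binds CCAAT boxes. The 250 bases before the start site of 6 members are shown because these genes span the range of patterns described below, from enzymes that varied together among tumor cells to the exporter Abca1, which did not follow them. Sequences are from RefSeq on GRCm38.p6, written 5′ to 3′ on the gene's own strand in lower case. Capitals mark CCAAT on either strand (read as ATTGG on the other) and TCACNCCAC, a form of the sterol regulatory element. The first is Hmgcs1, the enzyme that makes HMG-CoA.
Hmgcs1, chr13:119690101-119690350, plus strand: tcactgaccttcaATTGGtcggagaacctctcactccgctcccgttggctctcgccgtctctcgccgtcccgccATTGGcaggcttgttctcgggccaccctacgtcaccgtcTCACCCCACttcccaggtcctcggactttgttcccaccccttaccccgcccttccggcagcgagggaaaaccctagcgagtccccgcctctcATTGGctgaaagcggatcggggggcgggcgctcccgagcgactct
Mvk, chr5:114444019-114444268, plus strand: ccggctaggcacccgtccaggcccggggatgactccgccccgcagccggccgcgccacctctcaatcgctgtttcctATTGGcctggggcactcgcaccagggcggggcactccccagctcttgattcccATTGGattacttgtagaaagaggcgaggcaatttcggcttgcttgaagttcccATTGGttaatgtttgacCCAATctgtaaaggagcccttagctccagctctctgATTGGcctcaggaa
Idi1, chr13:8885356-8885605, plus strand: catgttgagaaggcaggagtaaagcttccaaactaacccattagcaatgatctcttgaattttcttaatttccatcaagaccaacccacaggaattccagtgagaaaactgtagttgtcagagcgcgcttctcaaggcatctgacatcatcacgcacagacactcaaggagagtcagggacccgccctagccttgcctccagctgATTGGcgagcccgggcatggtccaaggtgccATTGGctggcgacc
Cyp51, chr5:4104698-4104947, minus strand: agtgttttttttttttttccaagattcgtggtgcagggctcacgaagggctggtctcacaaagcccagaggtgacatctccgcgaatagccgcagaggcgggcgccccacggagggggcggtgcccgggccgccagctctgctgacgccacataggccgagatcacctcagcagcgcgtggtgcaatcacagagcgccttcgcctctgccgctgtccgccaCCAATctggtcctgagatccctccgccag
Insig1, chr5:28071162-28071411, plus strand: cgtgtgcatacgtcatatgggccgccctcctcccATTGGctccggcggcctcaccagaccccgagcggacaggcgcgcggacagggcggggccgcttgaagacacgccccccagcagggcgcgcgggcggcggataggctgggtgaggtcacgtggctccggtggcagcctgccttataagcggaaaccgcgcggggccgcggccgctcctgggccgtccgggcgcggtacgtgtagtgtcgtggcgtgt
Abca1, chr4:53159896-53160145, minus strand: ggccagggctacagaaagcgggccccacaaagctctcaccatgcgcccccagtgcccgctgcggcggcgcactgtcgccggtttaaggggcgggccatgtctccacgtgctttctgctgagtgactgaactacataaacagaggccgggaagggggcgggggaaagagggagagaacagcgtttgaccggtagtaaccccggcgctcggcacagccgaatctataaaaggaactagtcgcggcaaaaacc
A CCAAT was found within 250 bases of a start in 20 of the 23 members whose promoters were in the table (all but Fdps, Fdft1, Sqle, Stard4 and Npc1), against 37.5% of the 27025 genes with a promoter there and 39.1% of the 14935 of those that were also measured. It was found in 14 of 15 enzymes, and Abca1, Acat2 and Scap had none. At least 2 stood before 11 of the 23 members, against 12.7% of all genes, and the mevalonate kinase gene Mvk had 5. TCACNCCAC was found before Hmgcs1 alone among the 23, against 1.22% of all genes, and CACGTG, an E-box, before 6, against 6.86%. CCAAT shares no letters with TCACNCCAC in the Hmgcs1 window, and a match says only that these letters stand in the window. A gene with several start sites was counted if any of them had the motif.

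Library 1 held 12337 cell barcodes with 203459556 UMIs and library 2 held 11945 with 185474400, at medians of 11695 and 10756 UMIs per cell. Both libraries shared 225 barcode sequences, and the median mitochondrial share was 0.39% and 0.585%. After filtering, 11115 and 10785 cells remained. Clusters were named from marker genes and carry the ending "-like", since the files give no cell types. The tumor pool held 9378 cells in library 1 and 8615 in library 2. It joins epithelial tumor-like cells (2243 and 1583) with cells left without a lineage name (7135 and 7032). These include cluster 19, which had 5 epithelial markers called but few UMIs per cell. The unnamed cells carried the keratin gene Krt8 at 1755 and 2299 CPM, the UMIs of a gene scaled to a common total of UMIs, near the 2399 and 2731 CPM of epithelial tumor-like cells, but Epcam at 63.2 and 65.8 CPM against 868 and 812 CPM.

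The other classes with at least 100 cells in each library were macrophage-like (792 and 780 cells), fibroblast-like (374 and 453), T cell-like (119 and 329), neutrophil-like (143 and 170) and endothelial-like cells (151 and 130). RNA of tumor cells reached all of them. The median level of the epithelial markers, as a share of the level in the tumor pool, was 42% and 38.6% in macrophage-like, 25.8% and 25.3% in fibroblast-like, 56.8% and 57% in T cell-like, 45.8% and 61.8% in neutrophil-like and 24.5% and 31.2% in endothelial-like cells. A member was counted as above this background if its exact Poisson interval lay wholly above that share of its pool level in both libraries. That held for 28 of 28 members in macrophage-like and 27 in fibroblast-like cells, but for 12 in endothelial-like, 11 in T cell-like and 7 in neutrophil-like cells. Of the 18 enzymes, 3, 4 and 2 were counted as above it in the last 3 classes. A member not counted could still have a level above that share, with an interval that reached below it. The part of tumor cell RNA in the other enzyme levels of these classes was not tested.

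Among the tumor pool and the 5 larger classes, enzyme RNA stood highest in the pool as a whole and lowest in endothelial-like cells. The 18 enzymes summed to 960 CPM (exact Poisson 95% interval 955 to 965) in the tumor pool of library 1 and to 1215 CPM (1210 to 1221) in library 2. T cell-like cells stood at 830 and 799 CPM, neutrophil-like at 737 and 870, macrophage-like at 722 and 798, and fibroblast-like at 737 and 778 CPM. Endothelial-like cells had 488 CPM (447 to 531) and 473 CPM (427 to 522), or 50.8% and 38.9% of the pool. All 5 classes stood below the pool in both libraries, with intervals apart. This holds for the pool as a whole. Its groups 1, 6 and 17, described below, had lower sums than macrophage-like and fibroblast-like cells in both libraries. The intervals cover counting error only, not differences between tumors. Classes also differed in depth: the median was 12454 and 12630 UMIs per cell in the pool, 3580 and 4227 in endothelial-like and 1265 and 1115.5 in neutrophil-like cells, and the part of depth in these values was not tested.

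**Figure D1:**
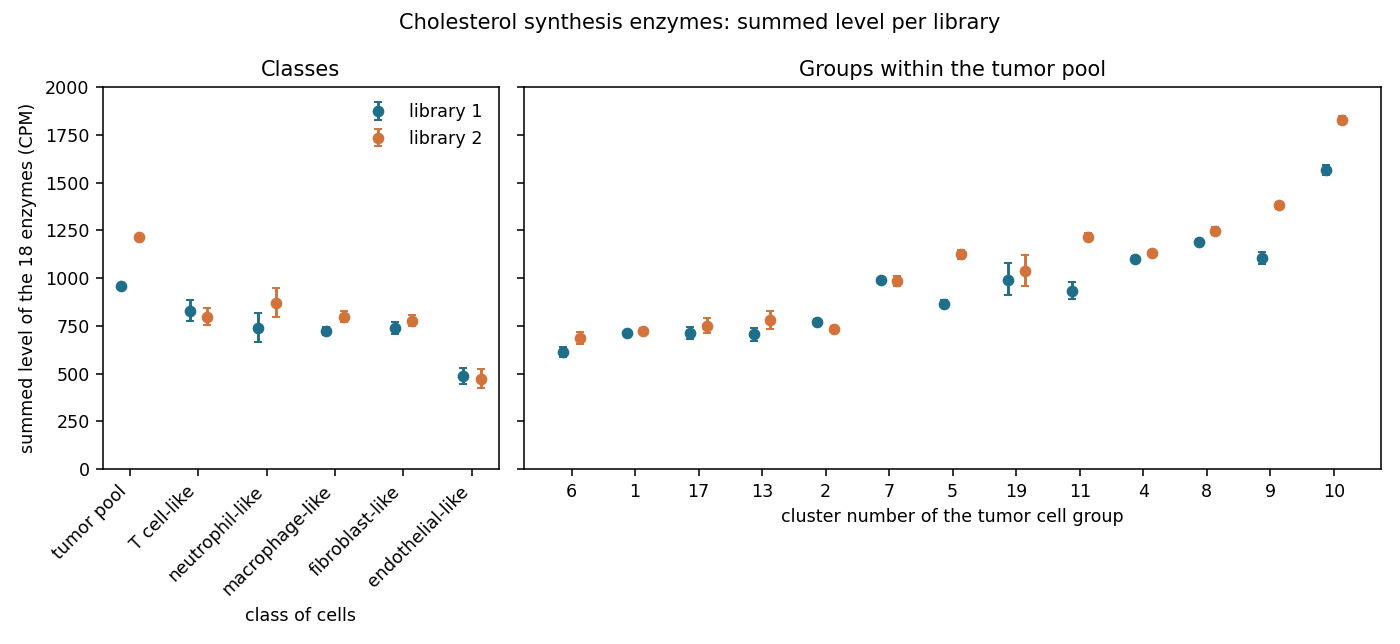
Summed level of the 18 enzymes in CPM for 6 classes (left) and for the 13 groups within the tumor pool, by cluster number (right), with exact Poisson 95% intervals. Points are libraries. Endothelial-like cells sit lowest at 488 and 473 CPM, and group 10 sits highest at 1565 and 1829 CPM.

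A member was called higher or lower in a class than in the tumor pool if it differed at least 1.5-fold the same way in both libraries, with intervals apart, and reached 20 CPM. In endothelial-like cells 16 of 26 members tested were lower, against 17.9% of all genes, and 14 of these were among the 16 enzymes tested. All 6 tested enzymes of the mevalonate steps were called. The median log2 ratio of the enzymes to the pool, averaged over the libraries, was -1.12, against -0.20 over all genes. Cyp51, the demethylase that opens the path from lanosterol, stood at 27 CPM in library 1 and 25.4 CPM in library 2, against 86.2 and 104 CPM in the pool. Acat2, which joins acetyl-CoA units at the start, stood at 5.59 and 6.04 against 16.9 and 23.5 CPM. Srebf2, whose product drives most of the pathway, stood at 205 and 207 against 426 and 507 CPM. The count of lower members fell to 3 without doublet removal and to 2 in cells thinned to 1000 UMIs.

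Macrophage-like cells were lower in 4 of 26 members, against 7.65% of all genes. All 4 act between squalene synthesis and the removal of methyl groups: Fdft1, the squalene synthase gene, at 49 and 64.1 against 84.3 and 135 CPM, Sqle, the squalene epoxidase gene, at 29.9 and 33.3 against 51.4 and 67.6 CPM, Cyp51 at 53.5 and 55 CPM, and Msmo1, a sterol demethylating oxidase gene, at 84.8 and 92.4 against 139 and 174 CPM. Fibroblast-like cells were lower in 8 members (Acat2, Sqle, Lss, Msmo1, Srebf1, Srebf2, Stard4 and Npc1), against 27.6% of all genes, a share near the background. There Cyp51 was not called, at 96.3 and 90.5 CPM. Neutrophil-like cells were lower in 5 (Fdps, Fdft1, Msmo1, Nsdhl and Insig1), against 3.19%, and higher in 0, against 8.09%. T cell-like cells had 0 members called higher, against 10.4% of all genes, and 0 lower, against 2.9%. Without doublet removal the lower counts were 0 in macrophage-like, 0 in fibroblast-like and 2 in neutrophil-like cells. With tumor cell RNA subtracted at the measured share, 12 members were lower in macrophage-like cells.

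**Figure D2:**
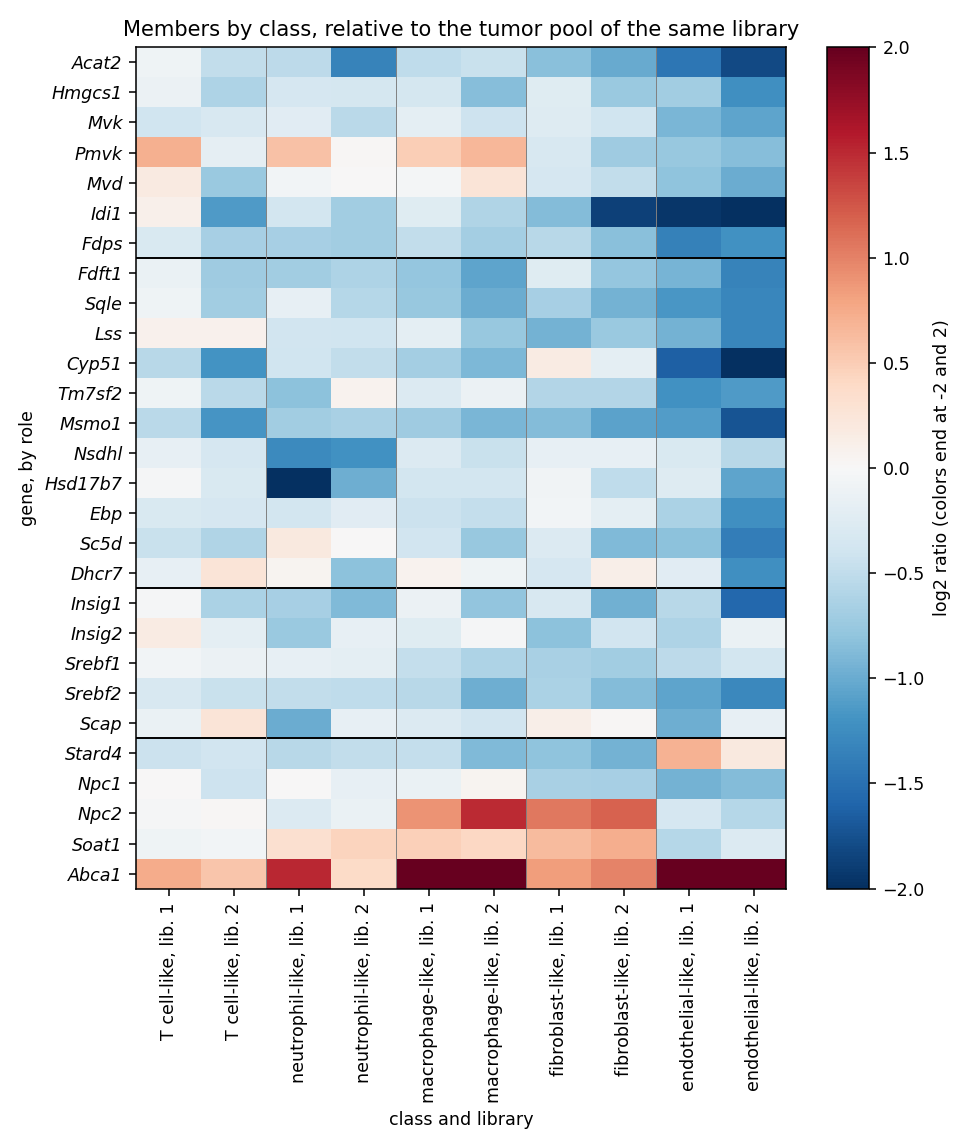
Log2 ratio of each member in 5 classes to the tumor pool of the same library (CPM plus 1), genes by role from top to bottom, with blue lower and red higher. The endothelial-like columns are blue for nearly all enzymes, while Abca1 is red there and in macrophage-like cells.

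The exporter Abca1 was called higher than in the tumor pool in macrophage-like, endothelial-like and fibroblast-like cells. The lysosomal carrier Npc2 was called higher in macrophage-like and fibroblast-like cells. Abca1, which encodes the pump that loads cholesterol and phospholipid onto lipid-poor apolipoprotein, stood at 39.9 CPM in the tumor pool of library 1 and 35.5 CPM in library 2. Macrophage-like cells had 223 and 305 CPM, and endothelial-like cells had 303 and 324 CPM. These were 5.59-fold and 8.61-fold over the pool in macrophage-like cells and 7.59-fold and 9.13-fold in endothelial-like cells. Among macrophage-like cells thinned to 1000 UMIs, 26.2% and 28% had an Abca1 UMI, and among endothelial-like cells 25.2% and 29.4%. In the tumor pool 3.94% and 3.34% did, which counts both the tumor cells' own Abca1 and any free RNA. Without thinning the shares were 59.5% and 54.5%, 58.3% and 63.1%, and 34.6% and 31.3%. Thinning left out 97 and 122 macrophage-like cells, 8 and 11 endothelial-like cells and 118 and 133 cells of the pool. Fibroblast-like cells stood between, at 72.4 and 71.2 CPM. T cell-like cells (67.5 and 52.9 CPM) and neutrophil-like cells (115 and 46.9 CPM) also stood above the pool, but Abca1 was not called there.

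In macrophage-like cells 2 of 26 members were called higher than in the pool, against 12.7% of all genes: Abca1 and Npc2, whose product takes cholesterol off lysosomal lipid and hands it to NPC1. Npc2 stood at 345 and 561 CPM there and at 383 and 452 CPM in fibroblast-like cells, against 184 and 198 CPM in the pool. In fibroblast-like cells 3 members were higher, against 12.9%: Npc2, Abca1 and Soat1, the enzyme gene that esterifies cholesterol for storage. Soat1 stood at 142 and 161 CPM, against 90.6 and 96.5 CPM in the pool. In endothelial-like cells Abca1 was the 1 member called higher, against 14.3%. Npc1, the partner of Npc2 in the lysosomal membrane, did not share its pattern, at 216 and 230 CPM in macrophage-like and 151 and 140 CPM in fibroblast-like cells, against 237 and 223 CPM. Under each of the 11 alternatives run, Abca1 in macrophage-like and endothelial-like cells and Npc2 in macrophage-like and fibroblast-like cells were still called. Abca1 lost its call in fibroblast-like cells under 1 and Soat1 under 3.

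**Figure D3:**
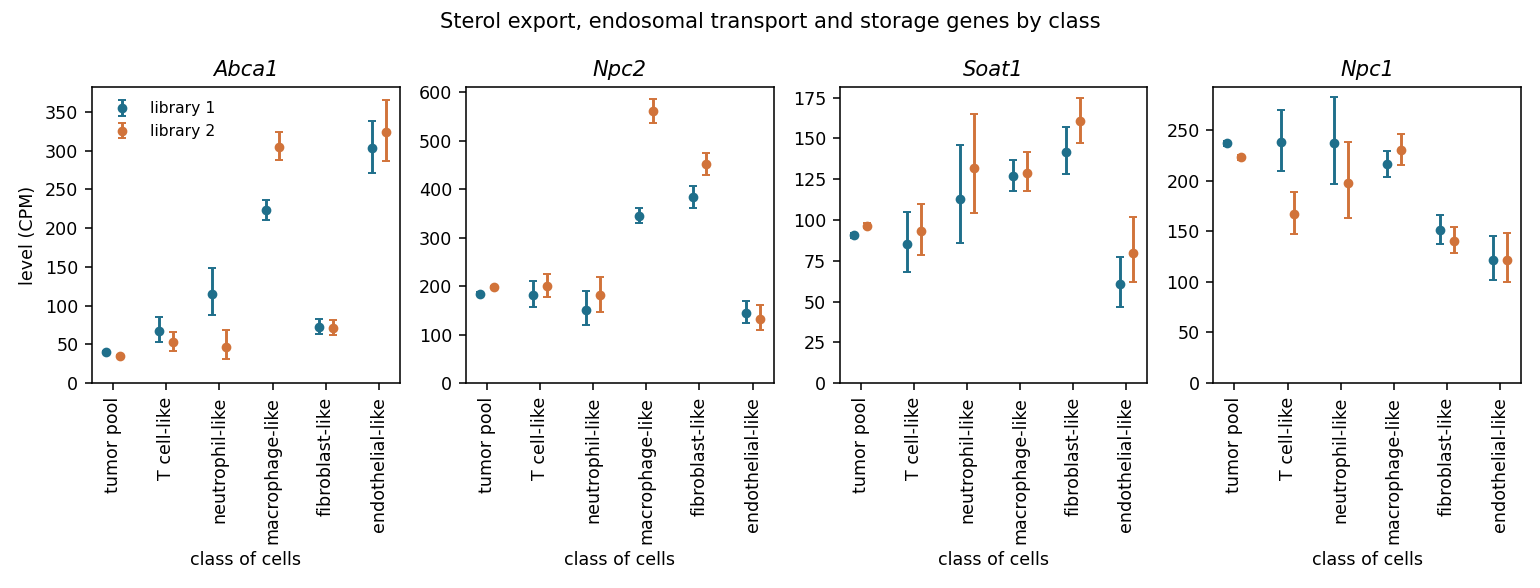
Level in CPM of 4 transport and storage members by class, with exact Poisson 95% intervals, and the libraries as 2 colors. Abca1 stands above 200 CPM in macrophage-like and endothelial-like cells and at 39.9 and 35.5 CPM in the tumor pool.

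Of 13 other genes of sterol efflux and LXR response, 10 stood below 20 CPM in the tumor pool, so those with a high level in a class passed the filter through that class alone, and their levels are given as a description. Abcg1, a second sterol exporter, stood at 38.5 and 72.3 CPM in macrophage-like and at 115 and 145 CPM in endothelial-like cells, against 1.92 and 2.48 CPM in the pool. Mylip, whose product marks lipoprotein receptors for breakdown, stood at 34.1 and 42.1 and at 25.2 and 36.3 CPM, against 0.747 and 0.537 CPM. Pltp, a phospholipid transfer protein gene, stood at 90.6 and 288 and at 32.6 and 18.1 CPM, against 3.66 and 6.13 CPM. Cyp27a1, a sterol hydroxylase gene, stood at 76.7 and 103 CPM in macrophage-like cells against 1.24 and 1.52 CPM. The 3 genes above 20 CPM in the pool (Nr1h2, Nr1h3 and Lpcat3) were not called higher in macrophage-like or endothelial-like cells. Other classes carried some of these genes too. Pltp stood at 258 and 89.6 CPM and Ch25h, another sterol hydroxylase gene, at 80 and 79.3 CPM in fibroblast-like cells. Abcg1 stood at 34.5 and 39.9 CPM in neutrophil-like cells. Cyp27a1 was low in fibroblast-like cells, at 6.88 and 4.52 CPM. The genes of fatty acid synthesis, which SREBP proteins also control, were lower in 6 of 14 tested in macrophage-like cells, against 7.65% of all genes. In endothelial-like cells 6 of 13 were lower, against 17.9%, and 0 higher, against 14.3%. In macrophage-like cells 1 was higher (Lpin1, at 25.8 and 28.3 against 11.2 and 8.41 CPM), against 12.7%. Lpin1 passed the filter through macrophage-like cells alone. Fasn, the fatty acid synthase gene, stood at 93.2 and 108 CPM and at 69 and 95.5 CPM, against 157 and 228 CPM in the pool.

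Enzyme RNA also varied within the tumor pool. The pool held 13 groups with at least 100 cells in each library, and they were clustered without the members or the companion lists. The enzyme sum was lowest in group 6, at 614 CPM (587 to 641) in library 1 and 685 CPM (655 to 716) in library 2. It was highest in group 10, at 1565 CPM (1539 to 1592) and 1829 CPM (1810 to 1848), which is 2.55-fold and 2.67-fold over group 6. Group 6, led by Ighg1, Kifc2 and Ebf4, was shallow, at medians of 4043.5 and 3442.5 UMIs per cell. It carried the keratin genes Krt8 at 692 and 935 CPM and Krt19 at 464 and 558 CPM. Macrophage-like cells, where such RNA was read as background, had Krt8 at 801 and 800 CPM and Krt19 at 583 and 492 CPM. Whether group 6 holds tumor cells was not tested. Group 10 was deep, at 18796 and 24233 UMIs, and carried the proliferation genes at 3096 and 3130 CPM in sum, against at most 537 and 902 CPM in the other 12 groups. Within groups, cells above the median depth had a median of 1.04 and 1.13 times the enzyme sum of cells below it, with ranges of 0.854 to 1.25 and 0.719 to 1.3.

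Cycling group 10 carried more of both enzyme branches than the other tumor cells. Of 27 members tested, 12 were higher, against 6.86% of all genes: 10 of 17 enzymes tested, the SREBP target Insig1 and the sterol carrier Stard4. Idi1, the isomerase gene for isopentenyl diphosphate, reached 20 CPM through group 10 alone, so the filter fixed its call, and without it 11 of 26 members and 9 of 16 enzymes were higher. In the mevalonate steps, Hmgcs1 stood at 158 and 184 CPM against 92.6 and 108 CPM in the other tumor cells. Idi1 stood at 21 and 26.5 against 9.47 and 12.9 CPM, and Fdps, which makes farnesyl diphosphate, at 188 and 207 against 96.3 and 112 CPM. Acat2 and Mvk were also called. Both libraries gave nearly the same ratio for each of these genes, with log2 values of 1.07 and 0.98 for Idi1 and 0.96 and 0.88 for Fdps.

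In the sterol steps, Cyp51 stood at 167 and 164 CPM in group 10 against 81.5 and 94.5 CPM, and Sqle at 91.5 and 110 against 49.1 and 61 CPM. Fdft1, Lss, which folds epoxidized squalene into lanosterol, and Msmo1 were also called. Tm7sf2, Nsdhl, Ebp, Sc5d and Dhcr7 were tested and not called. Ebp stood at 92.1 and 105 against 54.6 and 70.3 CPM, and Nsdhl at 36.1 and 33.4 against 23.8 and 24.2 CPM. Tm7sf2, a sterol reductase gene, stood at 38.6 and 41.7 against 37.9 and 41.2 CPM, and Dhcr7, which makes the last double bond change, at 44.5 and 54.1 against 42.3 and 45.6 CPM. Stard4 stood at 111 and 135 against 50.5 and 70 CPM and Insig1 at 131 and 172 against 76 and 104 CPM. Srebf2 stood at 587 and 651 against 417 and 485 CPM, which was under 1.5-fold and not called. Abca1 was the 1 member called lower, against 5.87% of all genes, at 17.2 and 13.9 against 41.3 and 38.8 CPM. The whole enzyme sum was 1.69-fold and 1.63-fold over the other tumor cells.

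Companion lists were read in the same way in group 10. Of 22 other sterol genes, 4 were higher, against 6.86% of all genes, and 3 were lower (Gramd1a, Vldlr and Lrp1), against 5.87%. Lbr, which encodes a sterol reductase of the nuclear envelope, was among the higher, at 160 and 162 against 56.6 and 63 CPM. So was Tmem97, a sterol-regulated membrane protein gene, at 49.9 and 51.1 against 17.9 and 18.3 CPM. Tmem97 reached 20 CPM through group 10 alone, so it was tested only because of its level there. Of 13 tested fatty acid synthesis genes, 2 were higher, against 6.86% of all genes (Elovl6, at 47 and 46.4 against 19.9 and 23.4 CPM, and Fads2). All 14 proliferation genes were higher, but group 10 was called cycling for its high sum of these genes, so that count restates the name. Of 10 hypoxia genes 5 were lower, against 5.87% of all genes. Under each of the 6 alternatives run, the group with the most proliferation RNA also had the highest enzyme sum of its clustering. In cells thinned to 1000 UMIs 6 enzymes were called in place of 10.

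**Figure D4:**
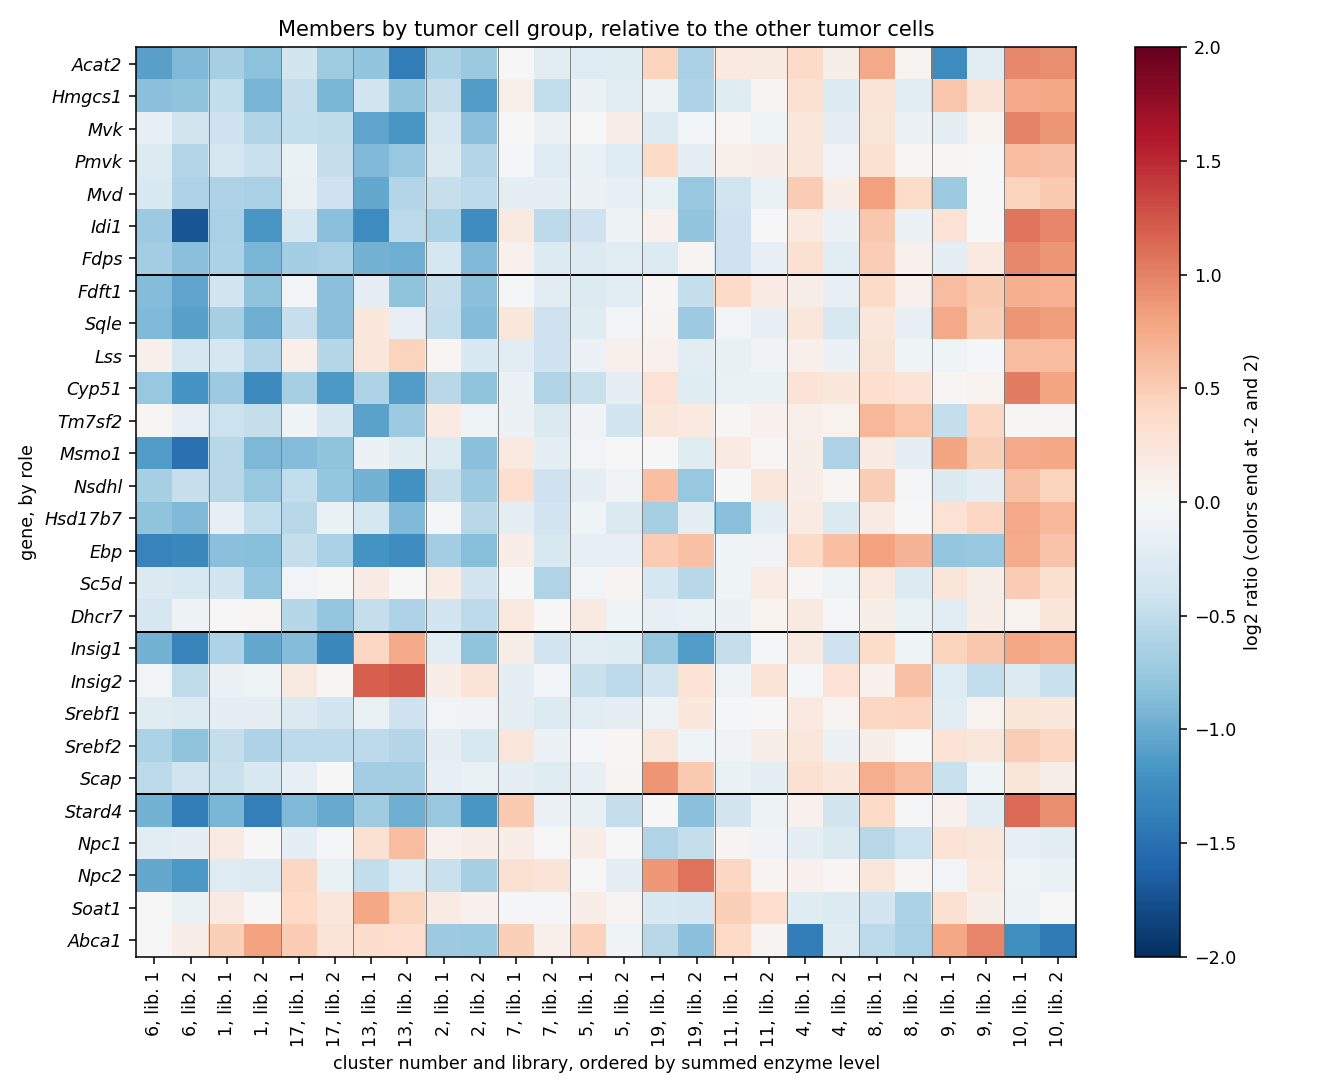
Log2 ratio of each member in the 13 tumor cell groups to the other tumor cells of the same library (CPM plus 1), with groups ordered by enzyme sum from left to right. Most enzyme rows pass from blue to red in that order, and Abca1, Insig2, Soat1 and Npc1 do not.

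Several groups stood low in the pathway. Group 6 was lower in 12 of 26 members, against 12.6% of all genes, among them Ebp, the sterol isomerase gene, at 22.1 and 30.4 CPM, and Stard4, at 27.8 and 30 CPM. Group 13 was led by the heat-shock genes Hspa1a and Hspa1b and by Adm, and had the highest sums of the 13 groups for metallothionein genes (1346 and 1599 CPM) and hypoxia genes (9751 and 9811 CPM in sum, against at most 5138 and 4503 CPM in the other groups). It was lower in 10 members, against 13.1%, among them Fdps at 52.9 and 63.1 CPM and Mvk at 28.7 and 37.9 CPM. Group 1, led by Chac1 and Trib3 of the amino acid stress response, was lower in 8, against 6.76%, at enzyme sums of 715 and 725 CPM. Group 17, led by interferon-induced Ifit genes, was lower in 5 (Fdps, Cyp51, Msmo1, Insig1 and Stard4), against 2.7%. Group 2, epithelial tumor-like cells led by Lama3 and Cldn4, was lower in 4 (Acat2, Ebp, Stard4 and Abca1), against 4.14%. Proliferation genes were lower in these groups too, in 10 to 12 of 13 tested. They were lower in 11 in group 7, against 5.76% of all genes, and in 10 in group 9, against 8.04%. The other tumor cells include cycling group 10, at 3096 and 3130 CPM of these genes in sum, which raises the reference for every other group. The enzyme sums were 992 and 985 CPM in group 7 and 1105 and 1381 CPM in group 9. The part of proliferation genes in the enzyme levels was not tested.

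Both INSIG genes stood above the other tumor cells in group 13. Insig2 was the 1 member called higher there, against 11.1% of all genes, at 60.3 and 51.2 CPM, the top of its range among the 13 groups in both libraries. Its lowest levels were 19.5 CPM in group 5 and 14.8 CPM in group 6. Insig1, not called, stood at 105 and 191 CPM in group 13 against 78.7 and 112 CPM, the value of library 2 the highest of the 13 groups of library 2. Sqle at 59.5 and 60.3 CPM and Lss at 41.4 and 62.4 CPM did not follow the lower enzymes of this group. Soat1 (154 and 132 CPM) and Npc1 (290 and 342 CPM) also had their highest level of the 13 groups there. Group 13 was shallow, at medians of 3722 and 3527.5 UMIs per cell.

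The other groups had 2 or fewer members called in each direction, at shares near or under those of all genes. Group 8, epithelial tumor-like cells with mucosal-defense genes such as Pigr and Agr2, was higher in Ebp (90.2 and 115 CPM) and in Scap, the SREBP escort (147 and 164 CPM), against 10.3% of all genes. Group 19, led by Tm4sf5, C3 and Tff2, was higher in Npc2 (338 and 423 against 184 and 197 CPM, with 6.07% of all genes called) and lower in Insig1 (46.5 and 52 CPM, against 25%). Group 9, led by Il11 and Aqp3, was higher in Abca1 (67.3 and 64 against 39 and 32.2 CPM, with 2.62% called) and lower in Ebp (33 and 45.7 CPM, against 8.04%). Msmo1 reached 235 and 232 CPM in group 9, near its level in cycling cells. Groups 4, 5, 7 and 11 had 0 members called. In these groups 3.68%, 0.322%, 0.831% and 0.802% of all genes were called higher than in the other tumor cells and 2.8%, 2.67%, 5.76% and 3.76% lower.

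The enzymes rose and fell together across groups. For each gene, its log2 level over the 26 points (13 groups in each library) was correlated with the mean of the other enzymes. The points share cells of 2 libraries and differ in depth, and the values are descriptions. Pearson's r was highest for Fdps (0.95), Stard4 (0.95), Cyp51 (0.94), Idi1 (0.92) and Srebf2 (0.92), and it was 0.7 or more for 14 of 18 enzymes, against 5.32% of 8136 genes. The lowest enzymes were Lss and Sc5d, both at 0.50. Insig1 had 0.61 and Npc2 0.43, while Npc1 (-0.39), Insig2 (-0.39), Soat1 (-0.44) and Abca1 (-0.52) ran against the enzymes. The median over all genes was -0.14, with 38.3% of them below -0.3. Without the cycling group Fdps had 0.92, Stard4 0.91, Lss 0.24 and Abca1 -0.30.

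The mean of the sterol enzymes followed that of the mevalonate enzymes at r = 0.95 over the 26 points (0.93 without the cycling group). Fatty acid synthesis genes followed the enzymes at 0.88 and 0.88, and proliferation genes at 0.78 and 0.62. Hypoxia genes ran against them at -0.55 and -0.50. Log2 median depth also followed them, at 0.62 and 0.56. Among single cells thinned to 5000 UMIs, the mevalonate and sterol sums had r between 0.11 and 0.59 in 24 sets of cells of 1 group and library, with a median of 0.38. Group 19 was not among these sets. Thinning left out most cells of shallow groups, as in group 6, where 261 cells were kept and 477 left out in library 1. Of the 10 genes outside the lists most like the enzyme mean, 8 are named here: Banf1, Ppil1, Lrp8, Cyb5b, Selenoh, Ccnd1, Sh3bp5 and Jpt2, with r from 0.86 to 0.89 over the 26 points. Lrp8 encodes a lipoprotein receptor and Ccnd1 encodes cyclin D1 of the early cell cycle.

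Between the libraries, enzyme RNA of the tumor pool stood higher in library 2 by a small and broad margin. The call here needs 1.5-fold with intervals apart and 20 CPM in 1 library. Of 26 members tested 1 was higher, against 1.97% of all genes, and 0 were lower, against 0.821%. It was Fdft1, at 84.3 and 135 CPM (log2 0.68). The 18 enzymes all had a ratio above 0, with a median log2 ratio of 0.31 over the 16 tested, against 0.00 over all genes. Idi1 stood at 10.1 and 14.7 CPM (0.50), Pmvk, the next kinase gene after Mvk, at 35.4 and 44.5 CPM (0.32), Mvk at 60.5 and 86 CPM (0.50), Stard4 at 53.9 and 78.6 CPM (0.54) and Insig1 at 79.1 and 113 CPM (0.51). Several members were close to even: Mvd, the decarboxylase gene that ends the mevalonate steps, at 21.8 and 22.6 CPM (0.05), Nsdhl, a sterol dehydrogenase gene, at 24.5 and 25.4 CPM (0.05), Sc5d, a sterol desaturase gene, at 50.2 and 55.6 CPM (0.14), and Srebf1, whose product leans to fatty acid genes, at 126 and 127 CPM (0.00). Insig2 (26.3 and 21.4 CPM, -0.28), Abca1 (39.9 and 35.5 CPM, -0.17) and Npc1 (237 and 223 CPM, -0.09) had ratios below 0.

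In the unnamed tumor cells Fdft1, Insig1 and Stard4 were higher in library 2, against 2.69% of all genes, with a median log2 ratio of the enzymes of 0.38. In epithelial tumor-like cells 0 members were called higher, against 0.84%, and 0 lower, against 0.909%, and the median was -0.03. Libraries differed in their makeup of groups: the cycling group held 3.75% of the pool in library 1 and 7.77% in library 2, group 1 held 21.4% and 9.44%, group 11, led by the metallothionein genes Mt1 and Mt2, 1.13% and 10.6%, and group 14, led by Mmp10, 0.288% and 6.57%. Proliferation genes were higher in library 2 in 10 of 13 tested in the pool, against 1.97% of all genes. The cycling group is named for these genes, so this count is not independent of the group shares just given. With library 2 weighted to the cluster shares of library 1, the median log2 ratio of the 18 enzymes, as means of per-cell shares, went from 0.28 to 0.08, and the number above 0 from 17 to 14. Fdft1 was then at 0.38, and not called.

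**Figure D5:**
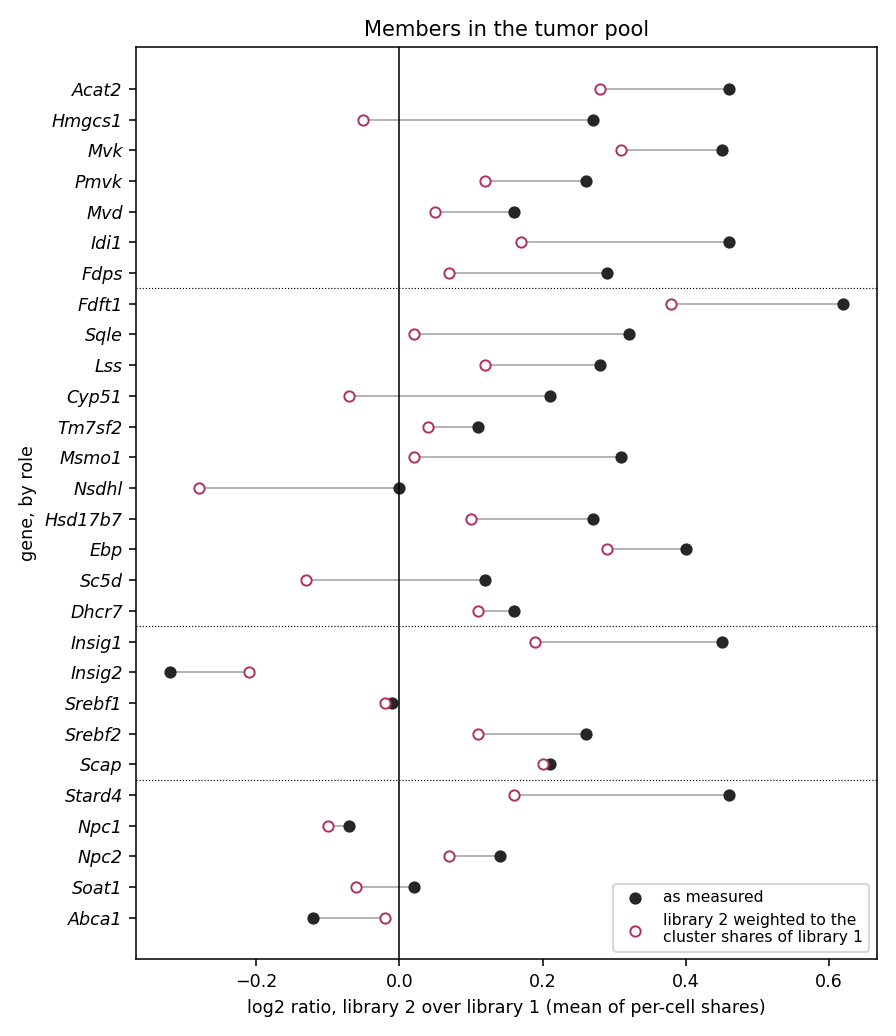
Log2 ratio of each member in the tumor pool, library 2 over library 1, from means of per-cell shares (filled) and after library 2 was weighted to the cluster shares of library 1 (open). The median of the enzymes goes from 0.28 to 0.08, and Fdft1 goes from 0.62 to 0.38.

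Within groups the ratio differed. The median over the enzymes tested was 0.44 in group 9, 0.35 in group 5, 0.35 in group 11, 0.24 in group 10, 0.19 in group 13 and 0.15 in group 6, and between -0.02 and 0.06 in groups 1, 2, 4, 7, 8, 17 and 19. In group 9 Acat2, Mvk, Mvd, Fdps and Tm7sf2 were higher in library 2, against 6.71% of all genes, with Fdps at 88.8 and 141 CPM. The filter needs 20 CPM in 1 library only, so a gene below it in library 1 was tested through library 2 alone. That holds at least for Acat2, at 6.65 CPM in library 1 of group 9. In group 11 Hmgcs1 (80.8 and 122 CPM), Insig1 (57.1 and 111 CPM) and Stard4 (41.7 and 74.1 CPM) were higher, against 2.41%, and all 16 enzymes tested had a ratio above 0. In group 5, led by mitochondrial transcripts, Mvk and Fdft1 were higher, against 5.65%, and proliferation genes summed to 289 and 902 CPM there. Abca1 was lower there, at 54.1 and 33.6 CPM, against 1.75%. Fdft1 was higher in group 10 (134 and 203 CPM, against 1.74%), Insig1 in group 13 (105 and 191 CPM, against 1.95%) and Abca1 in group 4 (15.7 and 30.3 CPM, against 2.31%). Insig2 was lower in group 6 (25.4 and 14.8 CPM, against 0.927%) and Nsdhl in group 7 (29.7 and 18.9 CPM, against 0.567%). Abca1 in group 4, Insig2 in group 6 and Nsdhl in group 7 also passed the filter through their higher library alone. Groups 9 and 5 also differed in depth between libraries, at 11006 and 18199 and at 12631 and 6385 UMIs per cell.

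Outside the tumor pool, each of the 5 larger classes had at most 1 member called in each direction between libraries. In macrophage-like cells Npc2 was the 1 called, higher in library 2 (345 and 561 CPM, log2 0.70), against 6.72% of all genes higher and 7.19% lower. In fibroblast-like cells Dhcr7 was the 1, at 33.3 and 51 CPM, against 3.08% higher and 3.76% lower. Scap was higher in library 2 in neutrophil-like cells (47.9 and 98.9 CPM, against 2.64%) and in endothelial-like cells (48.5 and 99.1 CPM, against 3.59% higher and 1.95% lower), on 25 and 57 and on 52 and 82 UMIs. Abca1 was lower in library 2 in neutrophil-like cells, at 115 and 46.9 CPM, against 1.94%, on 60 and 27 UMIs of which 3 cells held 26.7% and 29.6%. In T cell-like cells 0 members were called higher, against 5.18%, and 0 lower, against 2.87%. Hsd17b7 never reached 20 CPM in a class or group and stood at 9.15 and 11.2 CPM in the pool.

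Smaller classes rest on few cells. Dendritic-like cells (38 cells in library 1 and 177 in library 2) had an enzyme sum of 620 CPM (529 to 721) and 804 CPM (751 to 859). They were lower than the tumor pool in Sqle, Cyp51, Msmo1, Ebp, Insig1 and Stard4, against 8.33% of all genes. Their Abca1 stood at 52.3 and 44.5 CPM, against 223 and 305 CPM in macrophage-like cells. Pericyte-like cells (61 and 50 cells) had an enzyme sum of 505 CPM (425 to 595) and 718 CPM (628 to 818), with 9 members lower than in the pool, against 12.1%. Endocrine-like cells (15 and 8 cells) had 697 CPM (589 to 819) and 821 CPM (617 to 1071), with 0 members counted as above the tumor cell background. Between libraries, Insig1 was higher in library 2 in dendritic-like cells (18.7 and 60.3 CPM, on 5 and 65 UMIs, against 2.19% of all genes). In pericyte-like cells Sqle (14.2 and 69.9 CPM, on 4 and 22 UMIs) and Npc2 (124 and 223 CPM, on 35 and 70 UMIs) were higher, against 1.28%. Insig1 in dendritic-like and Sqle in pericyte-like cells passed the 20 CPM filter through library 2 alone. In unnamed cluster 22, which carries markers of other lineages (44 and 73 cells), Mvk was lower, at 94.6 and 34.9 CPM on 20 and 18 UMIs, against 1.52%.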

How the data were processed

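The authors deposited 1 matrix that holds raw UMI counts for every cell, from Cell Ranger 8.0.0 on mm10, per the submitters' processing notes. Kept cells reached 200 genes and 500 UMIs, with mitochondrial UMIs below 20%. Scrublet's automatic threshold marked 0 cells in either library, so the highest-scoring cells were removed at 0.8% per 1000 cells. Counts were scaled to 10000 per cell, and 3000 variable genes without the members and companion genes, 50 principal components, 15 neighbors and Leiden clustering at resolution 1 gave the clusters (scanpy 1.11.5). A cluster was named from at least 3 markers at 20 CPM and 2-fold over the rest. A cluster with few UMIs per cell lost its name if no marker of that class was among its leading genes. Cluster 19, with 5 epithelial markers called, went unnamed in this way. Counts were then summed per library and class or group. Log2 values used CPM plus 1. Calls need 1.5-fold, exact Poisson 95% intervals apart and 20 CPM in 1 library, and the same direction in both libraries for classes and groups. Cells are not replicates, so no p-value was computed. The calls were tested on simulated data. Named genes are the members that reach 20 CPM in a class or group, the 2 genes of each companion list farthest from even in each direction, and the 10 genes most like the enzyme mean; other companion genes named were chosen after their values were seen. The members and lists were chosen with earlier results of these data known. Some items are not reported here.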

Additional observations from a re-analysis of the deposited data

How the results depend on the processing

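Of 189 recomputed main values and counts, 149 stayed within 1.5 times the count or within the counting interval and 40 moved. Among recomputed single-gene values, 1702 kept their call or their lack of one, 81 lost a call and 64 gained one. In 1 more a called gene changed sign. Sign changes of genes without a call were not counted. For the enzyme sum of the tumor pool, library 2 over library 1 (log2 0.34), per-cell shares gave 0.31, weighting to the cluster shares of library 1 gave 0.09, leaving out cycling clusters 0.28 and thinning to 1000 UMIs 0.29. The median over the enzymes tested (0.31) became 0.06 with weighting, 0.23 without cycling clusters and 0.22 with thinning, and the 1 member called higher became 0 with weighting.

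Members above and below the pool were 2 and 4 in macrophage-like, 3 and 8 in fibroblast-like, 0 and 0 in T cell-like, 0 and 5 in neutrophil-like and 1 and 16 in endothelial-like cells. With TMM scaling fibroblast-like cells had 3 below and T cell-like cells 2. With per-cell shares macrophage-like cells had 7 below, T cell-like 1 below, and neutrophil-like and endothelial-like 2 above each. With thinning T cell-like cells had 1 below, neutrophil-like 1 above and 0 below, endothelial-like 2 below, and fibroblast-like 1 above and 3 below. With tumor cell RNA subtracted macrophage-like cells had 4 above and 12 below, and T cell-like 1 above and 3 below. Without the 3 highest cells T cell-like cells had 5 below and neutrophil-like 10. Without doublet removal 0 were below in macrophage-like and fibroblast-like, 2 in neutrophil-like and 3 in endothelial-like cells. T cell-like cells had 1 above with the members kept among the variable genes and 1 with no cell filter. Mvd in endothelial-like cells over the pool went from -0.89 to 0.30 with thinning.

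The ratio of the highest to the lowest group (2.55 and 2.67) was 2.39 with per-cell shares, 2.4 with members kept, 2.38 at resolution 0.5, 2.69 at resolution 2 and 2.26 without doublet removal in library 1, and 2.53 at resolution 0.5 and 2.84 at resolution 2 in library 2. Enzymes higher in the cycling group were 6 with thinning. The cause was not tested for these changes. Automatic doublet thresholds equal no doublet removal here and were not run apart. No paired analysis was possible because the labels give no replicate numbers and each treatment has 1 sample. Depth limits the small classes, and differences between tumors within a pool cannot be told apart.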

Other observations

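A pair of tumor pool groups had under 100 cells in 1 library. Group 14, led by Mmp10 and Apoc2 (27 and 566 cells), had enzyme sums of 1327 CPM and 1473 CPM, and group 16, led by the gel-forming mucin genes Muc5b and Muc5ac (355 and 43 cells), had 944 CPM and 1065 CPM.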
